A study of Arabidopsis thaliana with 2 samples.

Results

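SVP, AGL24 and the genes of the FLC clade are 8 MIKC-type MADS-box genes of Arabidopsis thaliana, and the peaks of 2 mutant SEP3-AG protein complexes were located at each of them. The members are SVP, AGL24, FLC, MAF1 (FLM, AGL27), AGL31 (MAF2), MAF3 (AGL70), MAF4 (AGL69) and MAF5 (AGL68), and all 8 were found by symbol among 27444 protein-coding genes on chromosomes 1 to 5. SEPALLATA3 (SEP3) and AGAMOUS (AG) are MADS-domain proteins of the flower that can bind DNA together as a tetramer. The complexes, called SEP3Δtet3M-AG and SEP3Δtet-AGΔtet in the sample titles, are both described as tetramerization mutants. Neither the meaning of 3M nor the changed residues are stated there. They were measured by sequential DNA affinity purification sequencing, a method in which proteins bind fragments of purified genomic DNA outside the plant. The DNA of both samples came from untreated seedlings 2 weeks old, so the peaks show binding to DNA without chromatin and say nothing of expression. Both samples carry the genotype label SEP3Δtet3M-AG, and the groups were therefore taken from the titles. The design text also mentions unaltered SEP3-AG and the mutant SEP3ΔtAG, and neither is analysed here.

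SVP and AGL24 are close relatives with opposite roles in the floral transition. SVP represses flowering, and AGL24 promotes it. FLC, the repressor that vernalization silences, acts in a complex with SVP at the flowering genes FT and SOC1. MAF1 acts with SVP in the response to ambient temperature. AGL31 (MAF2) represses flowering and limits the response to short cold spells, and MAF3 and MAF4 are further repressors. MADS-domain proteins bind an A/T-rich element called the CArG box. No sequence was read here, and no box was searched for.

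The SEP3Δtet3M-AG list held 1681 peaks and the SEP3Δtet-AGΔtet list 2277, and every peak was 400 bp wide. Each complex had 1 list, without scores or read depth, so peaks are either listed or not, and no test between the complexes was possible. A peak was assigned to a gene if its midpoint fell between 3000 bp before the gene's lower end and 3000 bp past its upper end. Gene positions come from the TAIR10.1 RefSeq table. The files name no genome build, so every distance from a gene assumes that their positions are those of that assembly. Intervals are exact 95% Clopper-Pearson intervals and cover the counting of genes only.

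Of the 8 genes, 3 had a peak, and the same 3 had it with both complexes: SVP, AGL24 and AGL31. This is 37.5% with SEP3Δtet3M-AG (interval 8.52 to 75.5) and 37.5% with SEP3Δtet-AGΔtet (interval 8.52 to 75.5). Among all protein-coding genes, 12.0% had a peak with SEP3Δtet3M-AG, 15.8% with SEP3Δtet-AGΔtet and 8.65% with both. With 8 genes and the 3000 bp limit, the lower end of the interval lies below the share of all genes in either list. Both SVP and AGL24 carried a peak, and of the 6 genes of the FLC clade 1 did, AGL31. A count of 1 in 6 is close to the share of all genes in either list. The difference between these 2 small groups was not tested. FLC, MAF1, MAF3, MAF4 and MAF5 had no peak in either list.

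Each of the 3 genes had exactly 1 peak per list, and each of these peaks lay inside the gene. Within 3000 bp outside the genes there was none. A peak inside the gene was found in 3.17% of all protein-coding genes with SEP3Δtet3M-AG, in 3.8% with SEP3Δtet-AGΔtet and in 2.14% with both. Long genes have more room for a peak. Of the protein-coding genes, 5107 were no shorter than the shortest member (AGL24, 3210 bp) and no longer than the longest (FLC, 6067 bp). Among these the shares were 6.42%, 7.46% and 4.25%. Of the 8 members, 37.5% had a peak inside with each complex (interval 8.52 to 75.5). Unlike at the 3000 bp limit, the lower end of that interval lies above the shares for each complex. The members were chosen with earlier results known, and the difference was not tested. Of the members without a peak, FLC, MAF5 (5116 bp) and MAF1 (4752 bp) are longer than SVP (4255 bp), AGL31 (4182 bp) and AGL24. MAF3 (4104 bp) and MAF4 (4010 bp) are shorter than SVP and AGL31. Whether gene length bears on which members had a peak was not tested.

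**Figure D1:**
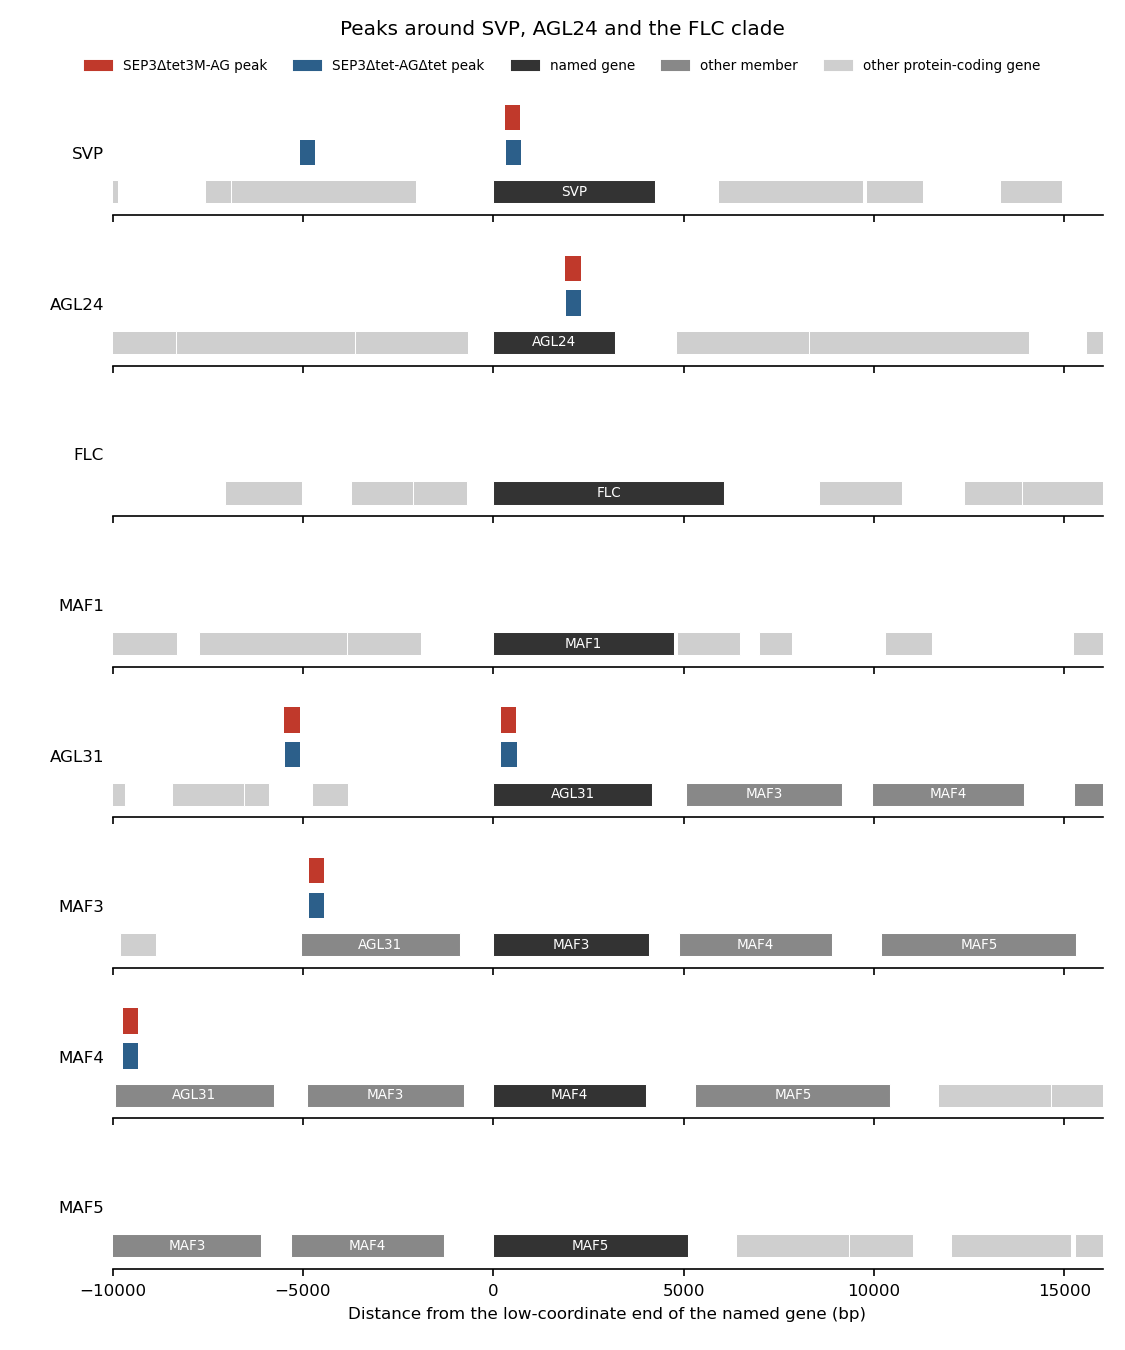
Peaks around the 8 genes, 1 row per gene. The x axis is the distance in bp from the end of the named gene with the lower coordinate. Red boxes (upper line) are SEP3Δtet3M-AG peaks, blue boxes (lower line) SEP3Δtet-AGΔtet peaks, and grey bars protein-coding genes, drawn to scale. SVP, AGL24 and AGL31 have a red and a blue peak inside the gene, at nearly the same place, and the rows of FLC, MAF1 and MAF5 hold no peak.

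At SVP, the repressor, the SEP3Δtet3M-AG peak covered chromosome 2, 9579958 to 9580357, and the SEP3Δtet-AGΔtet peak 9579972 to 9580371. Both lay inside the gene near its low-coordinate end, at 12.0% of its length with SEP3Δtet3M-AG and 12.3% with SEP3Δtet-AGΔtet. The midpoints were 510 bp and 524 bp from that end. The table gives no strand or exons, so neither peak is assigned to an exon, an intron or an untranslated region. SVP was the nearest gene to both peaks. The neighbour AT2G22530 lay 2541 bp from the SEP3Δtet3M-AG midpoint and 2555 bp from the SEP3Δtet-AGΔtet midpoint, so it shares the SVP peak under the 3000 bp rule.

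At AGL24, the promoter of flowering, the SEP3Δtet3M-AG peak covered chromosome 4, 12672793 to 12673192, and the SEP3Δtet-AGΔtet peak 12672810 to 12673209. These lay farther into the gene than at SVP, at 65.3% and 65.8% of its length from the low-coordinate end. The midpoints were 1114 bp and 1097 bp from the nearer end of the gene. AGL24 was the nearest gene in both lists. A neighbour on each side shares the peak: AT4G24550 lay 2716 bp from the SEP3Δtet3M-AG midpoint and 2699 bp from the SEP3Δtet-AGΔtet midpoint. For AT4G24530 the distances were 2770 bp and 2787 bp.

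At AGL31, the only FLC-clade gene with a peak, the SEP3Δtet3M-AG peak covered chromosome 5, 25982460 to 25982859, and the SEP3Δtet-AGΔtet peak 25982469 to 25982868. As at SVP, they lay close to the low-coordinate end, at 9.7% of the gene's length with SEP3Δtet3M-AG and 9.9% with SEP3Δtet-AGΔtet. The midpoints were 405 bp and 414 bp from that end. No other protein-coding gene shares the peak. The long non-coding RNA gene AT5G09295 lay 1506 bp from the SEP3Δtet3M-AG midpoint and 1515 bp from the SEP3Δtet-AGΔtet midpoint.

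The peaks of both complexes overlapped at each of the 3 genes. Across the lists, 67.6% of SEP3Δtet3M-AG peaks and 49.7% of SEP3Δtet-AGΔtet peaks overlapped the other list by at least 1 bp. The SEP3Δtet3M-AG midpoint minus the SEP3Δtet-AGΔtet midpoint was -14 bp at SVP, -17 bp at AGL24 and -9 bp at AGL31. The overlapping stretches were 386, 383 and 391 bp of the 400 bp. In all 3 genes the SEP3Δtet3M-AG peak thus began at the lower coordinate. Over all 1137 overlapping SEP3Δtet3M-AG peaks, 48.7% had a negative offset and 49.3% a positive one, with a median size of 8 bp and quartiles of 4 and 16 bp. An offset of at least the size at AGL31 was found in 49.5% of them, of that at SVP in 30.3% and of that at AGL24 in 22.8%. The offset at AGL24 therefore lay just beyond the upper quartile, and those at SVP and AGL31 lay within the quartiles. The error of a midpoint is unknown without replicates, and the files hold no summit.

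**Figure D2:**
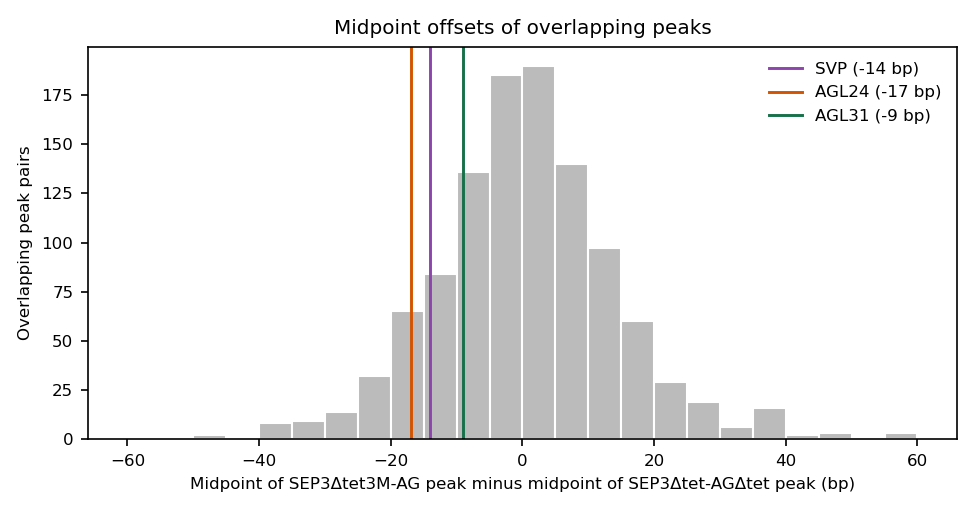
Midpoint offsets of overlapping peaks. The x axis is the SEP3Δtet3M-AG midpoint minus the SEP3Δtet-AGΔtet midpoint in bp, in bins of 5 bp, and the y axis the number of peak pairs. Coloured lines mark SVP (-14 bp), AGL24 (-17 bp) and AGL31 (-9 bp), all on the negative side of a distribution centred near 0. The 35 pairs farther than 60 bp apart are not drawn.

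AGL31, MAF3, MAF4 and MAF5 stand next to each other on chromosome 5 in a cluster of 20366 bp, with 873, 780 and 1301 bp between successive genes. The peak inside AGL31 was the only one in the cluster with either complex. It was also the nearest peak to each of the other 3 genes. With SEP3Δtet3M-AG the distance from its midpoint was 4650 bp to MAF3, 9534 bp to MAF4 and 14845 bp to MAF5. With SEP3Δtet-AGΔtet the distances were 4641, 9525 and 14836 bp. With a limit of 5000 bp in place of 3000 bp, MAF3 is counted too, through the peak inside AGL31, which makes 4 of 8 genes in each list. At that limit 17.3% of all protein-coding genes had a peak with SEP3Δtet3M-AG and 22.6% with SEP3Δtet-AGΔtet.

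Beyond MAF5 the next SEP3Δtet3M-AG peak was 40109 bp away, inside AT5G65170 (chromosome 5, 26042529 to 26042928). The next SEP3Δtet-AGΔtet peak on that side was 33994 bp away (26036414 to 26036813), nearest to SDH2-3, a gene of a succinate dehydrogenase subunit, and had no SEP3Δtet3M-AG counterpart. The peak-free stretch from the midpoint inside AGL31 to that next midpoint was 60069 bp with SEP3Δtet3M-AG and 53945 bp with SEP3Δtet-AGΔtet. On the other side of AGL31, both complexes had a peak between the neighbouring genes AT5G65040 and AT5G65030, with AT5G65040 standing between it and the cluster. It covered 25976769 to 25977168 with SEP3Δtet3M-AG and 25976773 to 25977172 with SEP3Δtet-AGΔtet, 5286 and 5282 bp from AGL31. AT5G65040 was the nearest gene to both.

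FLC, the repressor at the centre of the vernalization response, had the longest distance to a peak of the 8 genes with both complexes. The nearest SEP3Δtet3M-AG midpoint was 41165 bp from the gene (chromosome 5, 3132018 to 3132417), closest to AT5G10010. The nearest SEP3Δtet-AGΔtet midpoint was 33703 bp away (3139480 to 3139879), inside TGA4, which encodes a bZIP transcription factor. Neither overlapped a peak of the other list. On the opposite side the next peaks were 58886 bp away with SEP3Δtet3M-AG and 52143 bp with SEP3Δtet-AGΔtet. The peak-free stretch around FLC measured 106117 bp with SEP3Δtet3M-AG and 91912 bp with SEP3Δtet-AGΔtet.

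Such distances were not rare among other genes. The median distance from a protein-coding gene to the nearest peak was 21370 bp with SEP3Δtet3M-AG and 15688 bp with SEP3Δtet-AGΔtet. At least as far from a peak as FLC were 27.6% of protein-coding genes with SEP3Δtet3M-AG and 24.5% with SEP3Δtet-AGΔtet. MAF3, MAF4 and MAF5 were nearer to a peak than the median gene in both lists.

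MAF1 was also farther from a peak than the median gene, and it stood in the longest peak-free stretch of the 8 genes. The nearest SEP3Δtet3M-AG midpoint was 39298 bp from it (chromosome 1, 28915986 to 28916385), closest to IDL5. The nearest SEP3Δtet-AGΔtet midpoint was 26077 bp from it (28929207 to 28929606), closest to the long non-coding RNA gene AT1G09697. At least as far from a peak were 29.2% of protein-coding genes with SEP3Δtet3M-AG and 33.0% with SEP3Δtet-AGΔtet. The SEP3Δtet3M-AG peak overlapped one of the other list, and the SEP3Δtet-AGΔtet peak did not. On the other side no peak lay within 174840 bp with SEP3Δtet3M-AG or within 144263 bp with SEP3Δtet-AGΔtet. The whole peak-free stretch was 218889 bp with SEP3Δtet3M-AG and 175091 bp with SEP3Δtet-AGΔtet. The lengths of peak-free stretches, here and at the other members, were not compared with those around all genes.

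**Figure D3:**
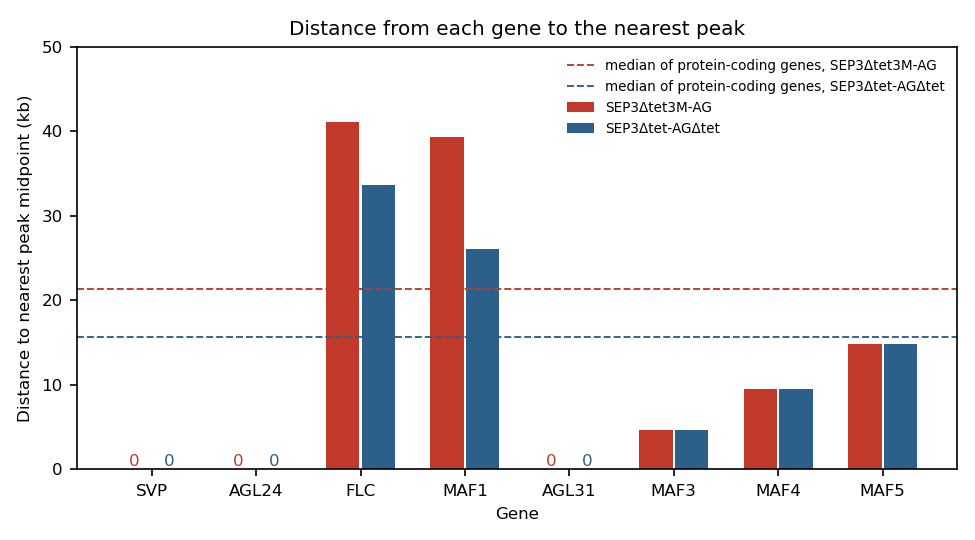
Distance in kb from each gene to the nearest peak midpoint, with SEP3Δtet3M-AG in red and SEP3Δtet-AGΔtet in blue. A 0 marks a gene with a peak inside, and dashed lines give the median over all protein-coding genes. SVP, AGL24 and AGL31 are at 0, MAF3 to MAF5 lie below both medians and FLC and MAF1 above both.

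In the wider surroundings, every member had at least as many SEP3Δtet3M-AG peaks as the median gene, and every member except FLC had at least as many SEP3Δtet-AGΔtet peaks. Within 50000 bp of a member there were 1 to 3 SEP3Δtet3M-AG peaks and 1 to 4 SEP3Δtet-AGΔtet peaks. Over all protein-coding genes the median was 1 (quartiles 1 and 2) with SEP3Δtet3M-AG and 2 (quartiles 1 and 3) with SEP3Δtet-AGΔtet. Most genes reach the median: 78.6% had at least 1 SEP3Δtet3M-AG peak and 61.9% at least 2 SEP3Δtet-AGΔtet peaks. The member counts include the peaks inside SVP, AGL24 and AGL31. The surroundings of AGL31, MAF3, MAF4 and MAF5 overlap, so these 4 genes partly count the same peaks. FLC had the fewest, 1 in each list, and MAF4 and MAF5 the most, 3 with SEP3Δtet3M-AG and 4 with SEP3Δtet-AGΔtet. At least as many as at MAF4 and MAF5 were found at 20.7% of protein-coding genes with SEP3Δtet3M-AG and at 17.6% with SEP3Δtet-AGΔtet.

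Around SVP and AGL24 the lists of the complexes differed at some of the next peaks. Near SVP, SEP3Δtet-AGΔtet alone had a peak inside the neighbour AT2G22530 (chromosome 2, 9574573 to 9574972), 4875 bp from SVP. With SEP3Δtet3M-AG the next peak on that side was 56573 bp away. On the other side the next peak lay inside AGL17, another MADS-box gene, in both lists. It was 35155 bp from SVP with SEP3Δtet3M-AG (9618857 to 9619256) and 35161 bp with SEP3Δtet-AGΔtet (9618863 to 9619262). No other peak of either list lay between those inside SVP and AGL17. Near AGL24, both complexes had a peak inside RGTA1, 15686 bp away with SEP3Δtet3M-AG and 15691 bp with SEP3Δtet-AGΔtet. Beyond AGL24 on the opposite side the next peak was 88740 bp away with SEP3Δtet3M-AG, inside AT4G24760. With SEP3Δtet-AGΔtet it was 50649 bp away, inside HB22, a homeobox gene. With 1 list per complex these differences have no test.

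Other MIKC-type genes were compared by 4 yes/no values: a peak inside the gene and a peak within 3000 bp outside it, for each complex. SVP, AGL24 and AGL31 have the same values, a peak inside with both complexes and none outside. Of 31 other MIKC-type genes, AP3, AGL17 and AGL18 equalled them in all 4 values. AP3 specifies petals and stamens, AGL17 promotes flowering and AGL18 represses it. The pattern was found in 482 protein-coding genes in all (1.76%). The offset of the overlapping peaks, SEP3Δtet3M-AG minus SEP3Δtet-AGΔtet, was 6 bp at AP3, -6 bp at AGL17 and -13 bp at AGL18. Likeness over 4 values from 2 lists is coarse. With SEP3Δtet3M-AG, 15 of the 31 genes had an assigned peak (48.4%, interval 30.2 to 66.9), and with SEP3Δtet-AGΔtet 16 did (51.6%, interval 33.1 to 69.8). Both intervals lie above the shares of all protein-coding genes, 12.0% and 15.8%. The interval for SVP, AGL24 and the FLC clade, 8.52 to 75.5, is wide. It contains the shares of the other MIKC-type genes and those of all protein-coding genes.

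A few genes that set FLC expression had a peak, although FLC itself had none. Of 28 such genes in lists drawn up by their known roles, 4 had a peak with SEP3Δtet3M-AG (14.3%, interval 4.03 to 32.7) and 6 with SEP3Δtet-AGΔtet (21.4%, interval 8.30 to 41.0). These intervals contain the shares of all protein-coding genes, 12.0% and 15.8%. All 4 genes with a SEP3Δtet3M-AG peak had an overlapping SEP3Δtet-AGΔtet peak.

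Of 7 genes of the autonomous pathway, which lowers FLC expression, FCA alone had a peak in either list. FCA encodes an RNA-binding protein. The peak midpoint lay just outside the gene, 69 bp away with SEP3Δtet3M-AG (chromosome 4, 9214851 to 9215250) and 57 bp away with SEP3Δtet-AGΔtet (9214839 to 9215238). Of 11 activators of FLC, 2 had a peak with SEP3Δtet3M-AG and 3 with SEP3Δtet-AGΔtet. ATX1, a histone methyltransferase, had peaks inside the gene 1 bp apart (chromosome 2, 13459582 to 13459981 with SEP3Δtet3M-AG and 13459583 to 13459982 with SEP3Δtet-AGΔtet). FES1, a zinc finger protein that acts with FRIGIDA, had peaks 115 bp from the gene with SEP3Δtet3M-AG and 113 bp with SEP3Δtet-AGΔtet, and both midpoints lay inside the neighbour AT2G33840. ELF7, a subunit of the PAF1 complex, contained a SEP3Δtet-AGΔtet peak but none of SEP3Δtet3M-AG (chromosome 1, 30002163 to 30002562).

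Of 10 vernalization genes, 1 had a peak with SEP3Δtet3M-AG and 2 with SEP3Δtet-AGΔtet. VEL1, a relative of VIN3, had overlapping peaks inside the gene, at chromosome 4, 14790086 to 14790485 with SEP3Δtet3M-AG and 14790095 to 14790494 with SEP3Δtet-AGΔtet. Their midpoint offset was -9 bp, as at AGL31. FIE, a subunit of Polycomb repressive complex PRC2, had only a SEP3Δtet-AGΔtet peak, 207 bp outside the gene (chromosome 3, 7252460 to 7252859).

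Of 11 genes downstream of SVP and FLC or partners of the flowering signal, 2 had a peak with SEP3Δtet3M-AG and 5 with SEP3Δtet-AGΔtet. These are 18.2% (interval 2.28 to 51.8) and 45.5% (interval 16.7 to 76.6). The SEP3Δtet-AGΔtet interval begins just above the 15.8% of all protein-coding genes, and the SEP3Δtet3M-AG interval contains their 12.0%. The intervals take no account of the number of lists compared. SOC1, an integrator of flowering signals, had peaks of both complexes, and FT had one with SEP3Δtet3M-AG alone. TEM1, TEM2, FD and SEP3 had a peak with SEP3Δtet-AGΔtet alone, each more than 1000 bp from the gene. The peaks assigned to TEM2 and FD were nearer to other genes, 1992 bp and 1637 bp away. The midpoint of the peak assigned to SEP3 lay inside another gene. Over all 39 pathway genes, 6 had a peak with SEP3Δtet3M-AG (15.4%, interval 5.86 to 30.5) and 11 with SEP3Δtet-AGΔtet (28.2%, interval 15.0 to 44.9). These intervals contain the shares of all protein-coding genes at 3000 bp, 12.0% and 15.8%. At a limit of 1000 bp the SEP3Δtet-AGΔtet count fell to 7, and the SEP3Δtet3M-AG count was again 6. The shares of all protein-coding genes at that limit were 6.61% with SEP3Δtet3M-AG and 8.69% with SEP3Δtet-AGΔtet. No interval was computed for the pathway counts at 1000 bp.

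**Figure D4:**
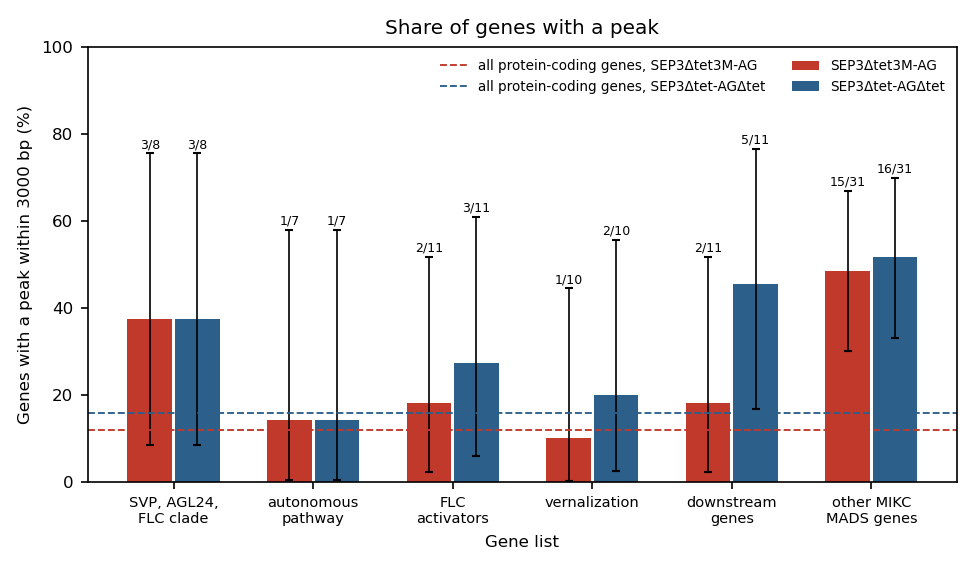
Percentage of genes with a peak midpoint inside or within 3000 bp, by gene list, with SEP3Δtet3M-AG in red and SEP3Δtet-AGΔtet in blue. Error bars are exact 95% intervals, fractions give the counts, and dashed lines the shares of all protein-coding genes (12.0% and 15.8%). SOC1 and SEP3 stand in both the downstream and the other MIKC list. SVP, AGL24 and the FLC clade stand at 37.5% with both complexes, with error bars that reach below both dashed lines.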

How the data were processed

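The authors deposited 1 peak list per complex, with chromosome, start and end in 3 columns and no other values. Bowtie2, SAMtools and MACS2 are listed, with no version, per the submitters' processing notes. The genome build, the caller's settings, read numbers, the handling of reads that fit several places and any pooling of libraries were not given in the sources used here, so the depth per sample is unknown. Starts were turned to positions counted from 1, and a peak's midpoint stood for its summit. Genes came from the TAIR10.1 RefSeq table, used for names, neighbours and distances. Peaks were overlapping when at least 1 bp was common. The nearest gene was taken among genes of every type. Counts used Python 3.11.15 with pandas 2.3.3, and intervals scipy 1.17.1. The steps were checked on artificial positions with known answers. Of the 39 pathway genes, 38 were found by symbol or synonym and 1 by locus identifier alone. The members and gene lists were chosen with earlier results of these data known. Named genes are all members, the genes nearest to or sharing their peaks and those next to them, pathway genes with a peak, and MIKC-type genes with equal values. Genes nearest to the peaks on either side were added after the data were seen. Alternatives were flanks of 0, 1000 and 5000 bp, any base of the peak, merged peaks, 200 bp of overlap and midpoints within 100 bp.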

Additional observations from a re-analysis of the deposited data

How the results depend on the processing

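The counts for SVP, AGL24 and the FLC clade depended little on the settings tried. With flanks of 0 or 1000 bp, any base of the peak or merged peaks, 3 of the 8 genes had a peak with each complex. The shares of all protein-coding genes did depend on the flank. With SEP3Δtet3M-AG they were 12.0% at 3000 bp, 6.61% at 1000 bp and 3.17% inside the gene. With SEP3Δtet-AGΔtet they were 15.8%, 8.69% and 3.8%. The lower end of the interval for 3 of 8 genes, 8.52%, lies below both shares at 3000 bp. It lies between them at 1000 bp and above both inside the gene. The settings of 200 bp of overlap and midpoints within 100 bp only change which peaks count as overlapping. Under both, the peaks of the complexes still overlapped at 3 genes. With a flank of 5000 bp, 4 genes had one with each, and the peaks numbered 3 with SEP3Δtet3M-AG and 4 with SEP3Δtet-AGΔtet. Among pathway genes, the SEP3Δtet-AGΔtet count of 11 was 7 at 1000 bp, since 4 of its genes have their peak farther away. No paired analysis was possible because each complex has 1 list. The planned search for CArG boxes was not run, since no genome was used here. Without scores or depth, a missing peak does not show that a gene was unbound.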
